A study of Mus musculus with 18 samples.

Results

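MyD88 dependence of the ssRNA response was taken as a difference of differences in dysferlin-deficient muscle: the change from saline to ssRNA in A/J-MyD88 deficient mice minus the same change in A/J mice. It rests on 12 of the 18 arrays of the series, which are all the arrays of these strains, chosen by their labels and by no measured value. The groups were A/J muscle injected with saline, A/J muscle injected with ssRNA, A/J-MyD88 deficient muscle injected with saline and A/J-MyD88 deficient muscle injected with ssRNA, with 3 arrays each. All mice were 2 months old and deficient in dysferlin, and the A/J-MyD88 mice were deficient in MyD88 as well. The tibialis anterior, a muscle of the lower leg, received 3 injections over 10 days with 3 days of recovery between them. The control for an ssRNA leg was the opposite leg, so every saline leg came from a mouse that had also received ssRNA. The sources used here do not give the sequence and dose of the ssRNA, nor how the MyD88 gene was altered, nor which animals, chips or runs lie behind the arrays. P-values therefore measure the spread between arrays, which may be partly technical. The fit held 17 arrays, among them A/JOlaHsd arrays outside this comparison, and their spread entered the variance of each gene.

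MyD88 is the adaptor that links most Toll-like receptors and the interleukin-1 receptor family to NF-kappaB and to interferon regulatory factors. Single-stranded RNA is read in endosomes by Toll-like receptor 7, which needs the chaperone Unc93b1 to get there and hands the signal to MyD88. Dysferlin is a membrane protein of muscle fibres that takes part in resealing the torn cell surface, and muscle without it undergoes degeneration with macrophage infiltration.

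The 12 arrays had mean signals of 98.1 to 147 and 37.2% to 42.6% of probes above background. A/J saline arrays had the lowest shares above background, 37.2% to 37.8%, against 39.0% to 42.6% in the other groups. Rank correlations ran from 0.917 to 0.989 over all pairs of the 12 arrays, and the lowest within a group was 0.973. Each of 7 fast muscle markers, among them Ckm and Acta1, was above background on all 12 arrays, and the lowest value was 10.90 on the log2 scale, against a median of 6.10 over all genes. The probe for Myd88 gave no check of the deficiency, since it was above background on all 6 arrays of A/J-MyD88 muscle. In A/J it read 7.08, 6.84 and 6.73 in saline legs and 8.32, 8.20 and 7.89 in ssRNA legs. In A/J-MyD88 it read 7.29, 7.79 and 7.71 in saline legs and 7.42, 7.97 and 7.66 in ssRNA legs. The A/J-MyD88 values lay between those of both A/J groups, except that the second ssRNA array was above the lowest A/J ssRNA array. The difference of responses for Myd88 was -1.17 (SE 0.24, limma adjusted p = 0.00578), and a second probe gave -0.55 (adjusted p = 0.0924). Dysf itself gave 0.42 (SE 0.20, adjusted p = 0.211).

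In A/J-MyD88 muscle no gene passed the test between ssRNA and saline legs, while macrophage, lymphocyte, antigen presentation and mitosis genes responded in A/J. For 493 genes the A/J-MyD88 saline legs stood above those of A/J. The difference of responses was called, at a limma adjusted p under 0.05, for 1144 of 11233 genes (10.2%). It was lower in A/J-MyD88 for 769 genes (6.85% of all tested) and higher for 375 (3.34%). More than 2-fold differences, 1 unit on the log2 scale, made up 509 of the lower and 72 of the higher genes. Centring each array on its median in place of quantile normalization shifted the median of all genes from 0.06 to -0.14 and gave 1681 lower and 83 higher genes, so the balance of directions depended on the scaling.

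Within A/J, ssRNA legs differed from saline legs in 2518 genes (22.4%), of which 1394 were higher. Within A/J-MyD88 limma called 0 genes, and the count was also 0 from the authors' values. An unadjusted limma p under 0.05 was reached by 131 of 11233 genes, a smaller share than the 0.05 that chance alone gives. The p-values may thus run high here, and 0 calls do not show that no gene responded. The 769 lower genes had a median A/J response of 1.17 and a median A/J-MyD88 response of -0.04. Those medians come from the contrast that chose the genes and describe them only.

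Each difference of responses is the sum of a saline part, A/J minus A/J-MyD88 in saline legs, and an ssRNA part, A/J-MyD88 minus A/J in ssRNA legs. Taken singly, saline legs differed between the strains in 604 genes (5.38%), 493 higher in A/J-MyD88 (4.39%) and 111 lower (0.988%). The ssRNA legs differed in 636 genes (5.66%), 297 higher (2.64%) and 339 lower (3.02%). Among the 769 lower genes the median saline part was -0.67 and the median ssRNA part was -0.52. Both parts were below 0 in 749 of them, which means that A/J-MyD88 saline legs were above A/J saline legs and A/J-MyD88 ssRNA legs below A/J ssRNA legs. The saline part made up at least 2/3 of the difference in 236 lower genes (30.7%) and at most 1/3 in 118 (15.3%). Among the 375 higher genes the parts were 0.29 and 0.51 at the median, and 149 genes (39.7%) had a saline share of at most 1/3 against 27 (7.20%) with at least 2/3.

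Single arrays were ordered as follows. All 3 A/J saline arrays were below the other 9 arrays in 236 of the 769 lower genes (30.7%), against 6.48% of all genes. All 3 A/J ssRNA arrays were above the other 9 in 481 lower genes (62.5%), against 7.76% of all genes. For the higher genes, A/J ssRNA arrays were the lowest 3 in 266 (70.9%), against 9.35% of all genes, and A/J saline arrays the highest 3 in 40 (10.7%), against 4.30%. The A/J-MyD88 ssRNA arrays were the highest 3 in 7 of them (1.87%), against 0.801%. The rule that chose these genes used the same values, so nothing is read from the excess.

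**Figure D1:**
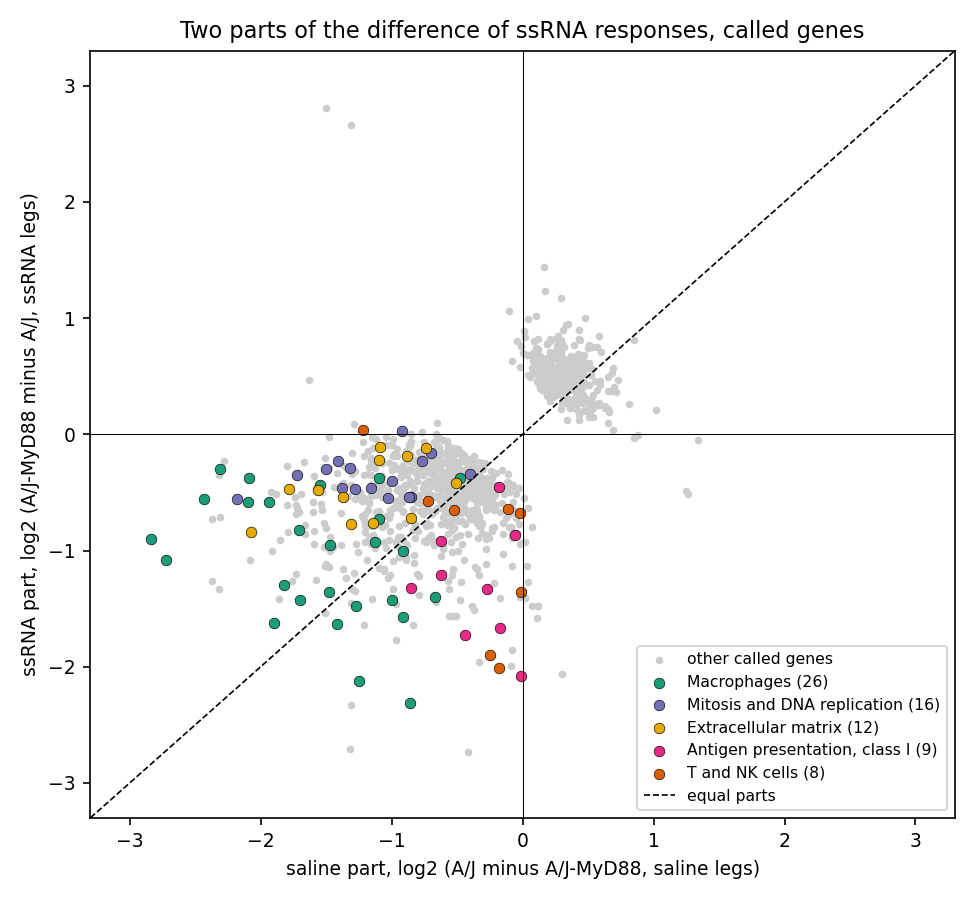
Saline part (x, log2) against ssRNA part (y, log2) of the difference of responses for the 1144 called genes, 1 point a gene, with called members of 5 gene lists in colour and their number in the legend. Macrophage and mitosis genes spread to the left, along the saline part, while class I genes and most of the called T and NK cell genes lie low, along the ssRNA part, and the dashed line marks equal parts.

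Assignment to saline or ssRNA legs needed a call for the difference of responses and for a second contrast, each at a limma adjusted p under 0.05. This second contrast, the sum of the strain differences in both kinds of leg, is orthogonal to the first. It tests whether the parts differ with their signs kept, and the part larger in size named the leg. Where the parts have opposite signs, as in Hemk1 and Myl3, the strains differ in the same direction in both kinds of leg. By this rule 14 genes (0.125% of all tested) were assigned to the saline legs and 23 (0.205%) to the ssRNA legs, while 742 lower and 365 higher genes were left unassigned. The second contrast alone passed for 114 genes (1.01%). With only the 12 arrays of these strains in the fit 133 genes were assigned to saline legs and 83 to ssRNA legs, and none of the 37 changed sides. With the legs of equal replicate number summed first, which allows for legs of 1 mouse, 8 and 8 genes were assigned, of which 3 and 8 were the same. Trem2, Hemk1 and Fcrls kept the saline legs in those sums. Ccl5, Klrd1, Nkg7, Fpr2, Myl3, Cfb, Trbv13-2 and 6430571L13Rik kept the ssRNA legs. Every other gene described as assigned, such as Mcm5, Vim, Plac8, Cd72, H2-K1 and Mapkapk3, lost its assignment there. A constant shift between the strains on the array would move the parts in opposite directions and leave the difference of responses as it is. The labels name no run, so strain and run cannot be told apart in any statement on which leg differs.

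The genes assigned to saline legs, lower in A/J-MyD88, included markers of phagocytes, regeneration and DNA replication. Trem2, a lipid-sensing receptor of macrophages, read 5.96, 5.94 and 5.28 in A/J saline legs and 8.93, 8.32 and 9.01 in A/J ssRNA legs. In A/J-MyD88 it read 8.06, 8.53 and 7.88 in saline legs and 8.29, 7.97 and 8.32 in ssRNA legs. All 9 other arrays were above the A/J saline legs by more than 1 unit, and both A/J-MyD88 groups overlapped. The difference of responses was -2.99 (SE 0.42, limma adjusted p = 0.000598), with a saline part of -2.43 (adjusted p = 0.000383) and an ssRNA part of -0.56 (adjusted p = 0.288). The second contrast was barely past the threshold (adjusted p = 0.0466), and the assignment was lost whichever of the 12 arrays was left out, but it was kept in the pair sums.

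Mcm5, a subunit of the helicase that opens DNA for replication, read 5.12, 5.15 and 4.83 in A/J saline legs and 6.68, 6.48 and 6.45 in A/J ssRNA legs. Its A/J-MyD88 values were 6.38, 6.66 and 6.30 with saline and 6.61, 6.05 and 6.26 with ssRNA. A/J saline legs stood alone, and the other groups overlapped. The difference was -1.64 (SE 0.22, limma adjusted p = 0.000521), of which -1.41 lay in the saline legs and -0.23 in the ssRNA legs, and the assignment held in 10 of the 12 fits without 1 array. Vim, the intermediate filament vimentin of mesenchymal and regenerating cells, gave -2.40 (SE 0.26, adjusted p = 0.000128) with parts of -1.80 and -0.61. Its assignment held in 3 of 12 such fits, and a second Vim probe gave -0.30 for the difference (adjusted p = 0.508). Gusb, the lysosomal beta-glucuronidase, gave -1.28 with parts of -1.22 and -0.07, and Ugt1a10, a glucuronosyltransferase, -2.51 with parts of -2.28 and -0.23, each assigned in 2 of 12 such fits. The other 3 Gusb probes gave -0.60, -0.41 and -0.72, and the other 2 of Ugt1a10 -2.27 and -1.03.

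The 4 genes with a positive difference in the saline legs were highest in A/J saline legs. Aldh6a1, a mitochondrial enzyme of valine breakdown, read 9.79, 9.60 and 9.79 there and 8.60 to 9.08 on the other 9 arrays. Its difference of 0.88 (SE 0.19, limma adjusted p = 0.00911) had a saline part of 0.88 and an ssRNA part of -0.01. Fam13a gave 0.83 with parts of 0.85 and -0.03.

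The genes assigned to ssRNA legs included markers of cytotoxic lymphocytes. Of the measured class I and class II genes H2-K1 alone was assigned there, and it lost this assignment in the pair sums. Ccl5, a chemokine made by T and NK cells, read 5.43, 4.72 and 4.59 in A/J saline legs and 7.36, 7.58 and 7.23 in A/J ssRNA legs. In A/J-MyD88 it read 5.13, 5.06 and 5.08 with saline and 5.02, 5.48 and 5.63 with ssRNA. The A/J ssRNA legs stood alone, while the saline legs of both strains overlapped. The difference was -2.19 (SE 0.30, limma adjusted p = 0.00053), with a saline part of -0.18 (adjusted p = 0.756) and an ssRNA part of -2.01 (adjusted p = 5.89e-05).

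Klrd1, the CD94 chain of NK cell receptors, read 4.85, 4.34 and 4.23 in A/J saline legs and 6.84, 7.09 and 6.70 in A/J ssRNA legs. Its A/J-MyD88 values were 4.74, 4.82 and 4.62 with saline and 5.04, 4.85 and 5.06 with ssRNA, again with no array near the A/J ssRNA legs. The difference was -2.15 (SE 0.23, limma adjusted p = 0.000128), with parts of -0.25 and -1.90. Nkg7, a granule protein of NK and cytotoxic T cells, gave -1.37 (SE 0.22, adjusted p = 0.0013), with parts of -0.01 and -1.36. It was above background on 0 of 3 A/J saline arrays, so its A/J response is at least 2.58-fold (adjusted p = 1.01e-05). Ccl5, Klrd1 and Nkg7 kept their assignment in all 12 fits without 1 array and in the pair sums.

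H2-K1, the class I molecule that shows peptides to CD8 T cells, read 7.58, 6.47 and 6.18 in A/J saline legs and 9.08, 8.79 and 8.68 in A/J ssRNA legs. In A/J-MyD88 it read 7.03, 6.62 and 6.61 with saline and 6.86, 6.49 and 6.95 with ssRNA, inside the range of the A/J saline legs. The difference was -2.09 (SE 0.44, limma adjusted p = 0.00642), with parts of -0.01 and -2.08, and the assignment held in 5 of 12 fits without 1 array. Its other probes gave -0.62 (adjusted p = 0.0153) and -0.93 (adjusted p = 0.185), and class I genes are close in sequence, so probes may share signal.

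Plac8, a cysteine-rich protein of leukocytes, read 9.17, 7.69 and 7.82 in A/J ssRNA legs and 4.58 to 5.79 on the other 9 arrays. Its difference was -3.15 (SE 0.50, limma adjusted p = 0.00112), with parts of -0.42 and -2.73, and the assignment held in 4 of 12 fits. Cd72, a lectin of B cells and myeloid cells, gave -2.29 with parts of -0.33 and -1.96, and its assignment held in 11 of 12. Fpr2, a formyl peptide receptor of neutrophils and macrophages, was above background on none of the A/J saline, A/J-MyD88 saline or A/J-MyD88 ssRNA arrays. It was at least 3.40-fold higher in A/J ssRNA than in A/J-MyD88 ssRNA legs. Of the groups compared, only A/J ssRNA brought it through the detection filter, and it was called in 9 of 12 fits. Its bound and its assignment therefore describe a gene chosen for being high there.

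**Figure D2:**
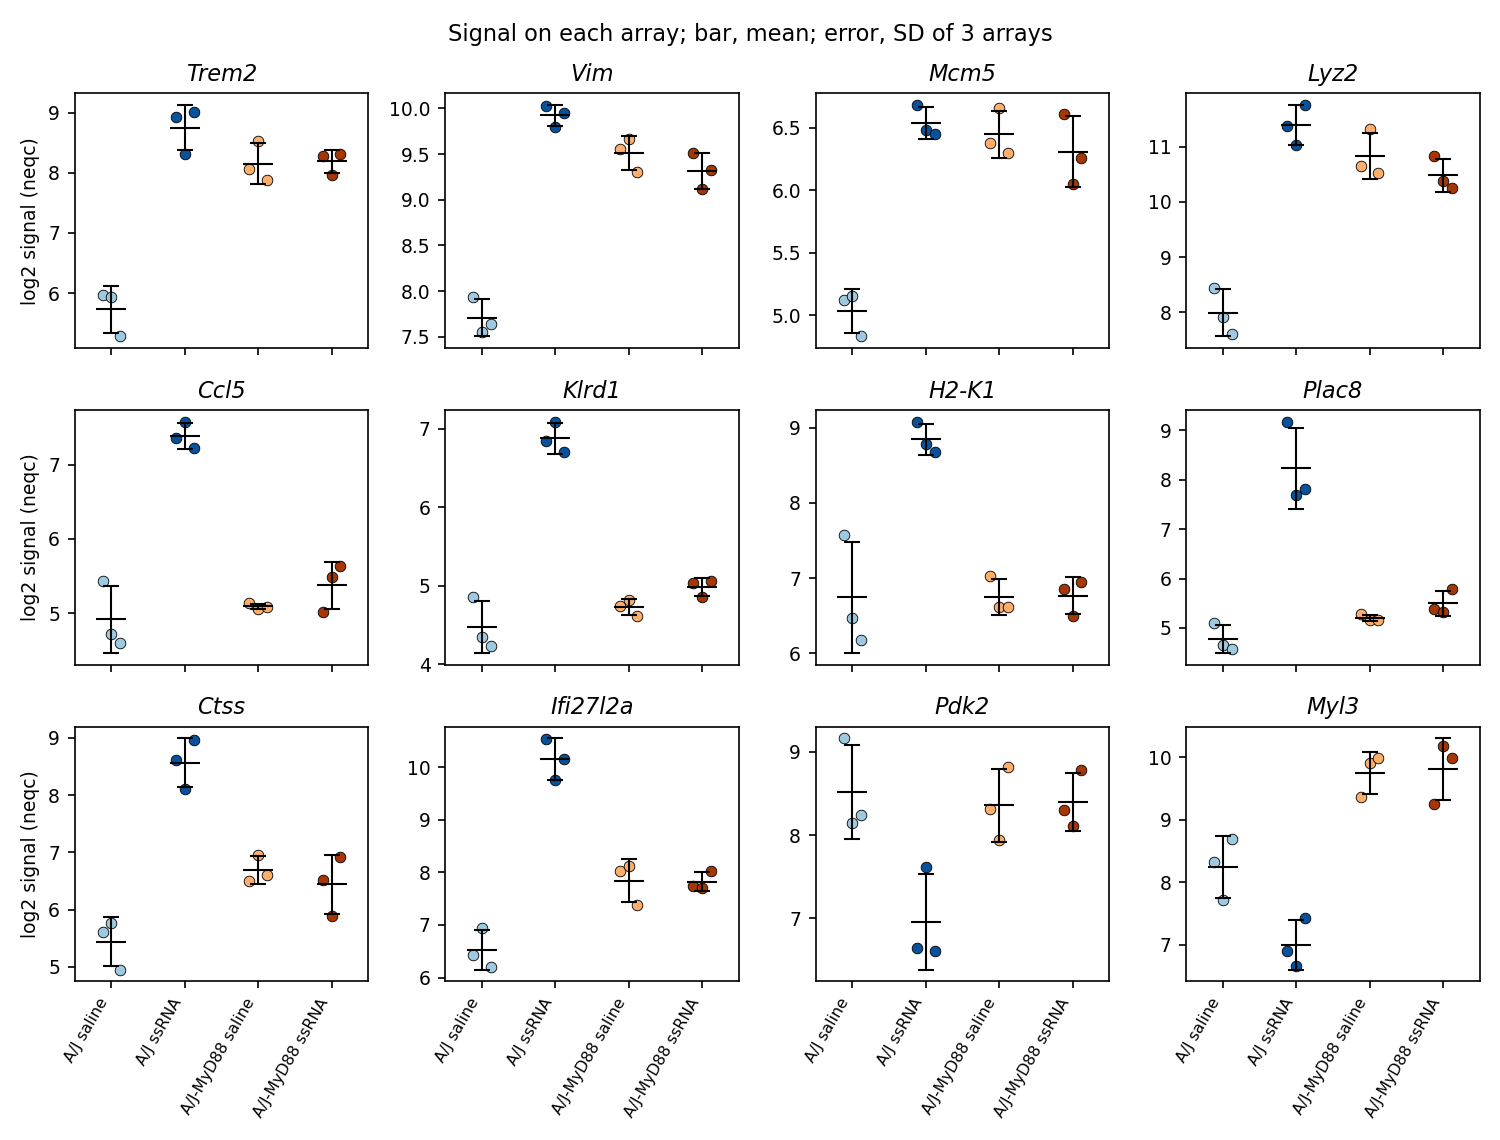
Log2 signal (y) of 12 genes on each of the 12 arrays, by group (x), with the mean and SD of 3 arrays. Trem2, Vim, Mcm5 and Lyz2 are low in A/J saline legs and near each other elsewhere, Ccl5, Klrd1, H2-K1 and Plac8 are high in A/J ssRNA legs, Ctss and Ifi27l2a rank A/J-MyD88 between both A/J groups, Pdk2 is low in A/J ssRNA legs, and both A/J-MyD88 groups exceed both A/J groups for Myl3.

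Among called genes detected in every group, the largest negative differences belonged to genes of macrophages, chemokines and histones that were not assigned to 1 kind of leg. Ccl8, a chemokine that draws monocytes and T cells, read 4.98, 4.75 and 4.46 in A/J saline legs and 9.0, 8.12 and 8.45 in A/J ssRNA legs. Its A/J-MyD88 values were 6.68, 6.22 and 5.24 with saline and 5.83, 5.99 and 5.60 with ssRNA, between both A/J groups and overlapping each other. The difference was -4.03 (SE 0.40, limma adjusted p = 0.000113), with parts of -1.32 and -2.71.

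Lyz2, the lysozyme of macrophages and neutrophils, read 8.45, 7.92 and 7.61 in A/J saline legs and 11.38, 11.03 and 11.75 in A/J ssRNA legs. In A/J-MyD88 it read 10.64, 11.31 and 10.53 with saline and 10.82, 10.38 and 10.25 with ssRNA. The A/J-MyD88 saline legs were thus closer to the A/J ssRNA legs than to the A/J saline legs. The difference was -3.74 (SE 0.64, limma adjusted p = 0.00182), with parts of -2.84 and -0.90, and Ms4a6d, a membrane protein of macrophages, had parts of -2.72 and -1.08. Both were assigned to saline legs in the fit of 12 arrays. Other Lyz2 probes gave -3.23 and -0.80. The histone genes H2ac12 and H2ac15 gave -3.65 and -3.63, but their sequences are nearly identical and their probes may read several copies.

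Ctss, the cathepsin that trims the invariant chain of class II molecules, and Ifi27l2a, an interferon-induced gene, had larger ssRNA parts. Ctss gave parts of -1.25 and -2.12 and a difference of -3.37 (SE 0.43, limma adjusted p = 0.000353), and Ifi27l2a gave parts of -1.31 and -2.33 and a difference of -3.64 (SE 0.43, adjusted p = 0.000243). Ms4a7, Ly86 and Fcgr4, an Fc receptor of monocytes, gave -3.53, -3.29 and -3.17. For Ms4a7 and Ly86 the parts were of like size, and for Fcgr4 they were -0.86 and -2.31.

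Proximal promoters of 3 genes show letters that were searched in all promoters. Of these genes Trem2 was assigned to saline legs, and Cdk1 and Ctss were not assigned. The sequences are the 120 bases before the RefSeq start on GRCm38.p6, 5′ to 3′ on the gene's strand, with the match in capitals. Trem2 (chr17:48346281-48346400, plus strand) holds GAGGAA, the core letters read by PU.1, the transcription factor of the myeloid lineage, on the opposite strand from 40 bases before the start, printed here as its complement. Cdk1 (chr10:69352913-69353032, minus strand) holds TTTGAA, the letters of the cell cycle homology region of mitotic genes, from 71 and 15 bases before the start. Ctss (chr3:95526666-95526785, plus strand) holds 2 copies of GAAA parted by any 2 bases, the core of the interferon-stimulated response element, from 21 bases before the start.
Trem2: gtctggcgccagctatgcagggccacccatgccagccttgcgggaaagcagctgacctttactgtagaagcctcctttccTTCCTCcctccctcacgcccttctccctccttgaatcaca
Cdk1: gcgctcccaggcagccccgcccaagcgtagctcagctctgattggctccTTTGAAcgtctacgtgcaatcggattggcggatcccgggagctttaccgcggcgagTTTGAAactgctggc
Ctss: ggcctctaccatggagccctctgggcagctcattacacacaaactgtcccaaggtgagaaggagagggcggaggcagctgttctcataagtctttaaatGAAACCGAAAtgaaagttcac

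Over windows from 250 bases before to 50 after the start, on both strands, 9058 of 11233 genes had a RefSeq promoter. GAGGAA stood in 27.1% of them, TTTGAA in 11.9% and the interferon element core in 2.91%. The lower genes with a saline share of at least 2/3 held them in 33.8%, 20.5% and 3.08% of 195 promoters. Those with a share of at most 1/3 held them in 40.0%, 21.1% and 11.6% of 95 promoters. Between these groups the interferon element core differed most, and GAGGAA and TTTGAA were not more frequent at the higher saline share. Among assigned genes GAGGAA stood in 7 of 13 promoters for saline legs and 4 of 16 for ssRNA legs. In these wider windows Cdk1 and Ctss also held GAGGAA. By list, GAGGAA stood in 15 of 25 macrophage promoters, TTTGAA in 14 of 27 mitosis promoters and the interferon element core in 13 of 24 promoters of interferon-induced genes. These are counts of letters, not of binding sites.

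Macrophage genes were the list furthest from the other genes. Of 36 measured, 26 had a lower difference and 0 a higher one, with a median of -2.50 against 0.06 over all genes. Their median saline part was -1.26 and their median ssRNA part -0.91. On the mean of the list, A/J saline legs lay at 5.58 to 6.12 and A/J ssRNA legs at 7.90 to 8.24, while A/J-MyD88 lay at 6.94 to 7.38 with saline and 6.96 to 7.15 with ssRNA. The strains did not overlap in either kind of leg. In these whole-muscle samples, fewer cells of a type and less RNA per cell cannot be told apart. Of the 36 genes 1, Trem2, was assigned to the saline legs and 0 to the ssRNA legs, and in the fit of 12 arrays 8 and 0.

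Lysosomal and oxidase genes also had the larger part in saline legs at the median, and complement genes in ssRNA legs. Of 18 genes for lysosomal proteases and phagocytosis 10 were lower, with median parts of -0.85 and -0.48. Ctsh, a lysosomal aminopeptidase, gave -2.53 (SE 0.31, limma adjusted p = 0.000311) with parts of -1.59 and -0.94, and Laptm5, a lysosomal membrane protein of blood cells, gave parts of -1.71 and -0.82. All 4 measured subunits of the phagocyte NADPH oxidase were lower, among them Cyba with -2.34 (parts -1.73 and -0.61). Of 13 complement genes 6 were lower, and C1qb and C1qc, chains of C1q made by macrophages, had saline parts of -1.51 and -1.50 beside list medians of -0.40 and -0.60 for the parts. Inflammasome components were lower in 4 of 15 genes, with Casp1, the interleukin-1 converting protease, at -2.08 and parts of -0.99 and -1.09.

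Mitosis and DNA replication genes had the larger part in the saline legs at the median. Of 31 measured, 16 were lower and 0 higher, with a median difference of -0.89, a median saline part of -0.77 and a median ssRNA part of -0.29. All 3 A/J saline arrays were below the other 9 in 15 of the 31, against 6.48% of all genes. In saline legs 16 genes of this list stood above A/J in the A/J-MyD88 mice, against 4.39% of all genes. In ssRNA legs 0 differed in either direction at a limma adjusted p under 0.05, against 5.66% of all genes. Saline and ssRNA legs of A/J-MyD88 had list means of 5.75 to 5.98 and 5.63 to 5.84, beside 4.95 to 5.12 and 5.92 to 6.01 in A/J.

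Prc1, which bundles microtubules in cell division, gave -2.74 (SE 0.49, limma adjusted p = 0.00246) with parts of -2.18 and -0.56. Cenpa, the histone of centromeres, gave -2.07 with parts of -1.72 and -0.35. Cdk1, the kinase of mitotic entry, was above background on 0 of 3 A/J saline arrays and on all A/J-MyD88 arrays, and was at least 2.33-fold higher in A/J-MyD88 saline legs (adjusted p = 0.0116). Of the 31 genes 1 was assigned to saline legs and 0 to ssRNA legs, and in the fit of 12 arrays 12 and 0.

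Matrix and regeneration genes also had the larger part in saline legs at the median, and 0 matrix genes and 1 regeneration gene, Vim, were assigned to 1 kind of leg. Of 37 extracellular matrix genes 12 were lower, with median parts of -0.58 and -0.19. In the saline legs 12 differed, against 5.38% of all genes, and in the ssRNA legs 0, against 5.66%. Tnc, the matrix protein tenascin C of injured tissue, gave -2.91 (SE 0.45, limma adjusted p = 0.00106) with parts of -2.07 and -0.84, and other Tnc probes gave -2.81 and -0.47. Fn1, fibronectin, gave -2.24, but its call held in 6 of 12 fits without 1 array. Of 18 fibroblast genes 5 were lower, among them Thy1 with -1.18, parts of -1.22 and 0.04, and a call that held in 4 of 12 such fits. Of 21 regeneration genes 4 were lower and 0 higher, with median parts of -0.49 and 0.14. Myog, myogenin of differentiating myoblasts, gave -1.92 with parts of -1.67 and -0.24. Its call held in 7 of 12 such fits, and a second probe gave -0.25 for the difference (adjusted p = 0.577).

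Ankrd1, a stretch-responsive protein of muscle, was the one of the stress genes with the largest difference. It gave -2.67 (SE 0.59, limma adjusted p = 0.00883), of which -2.32 lay in the saline legs, where A/J-MyD88 averaged 10.40 ± 0.70 (SD, n = 3) and A/J 8.09 ± 0.30. Here A/J-MyD88 saline legs were the highest group. Of 22 immediate early and heat shock genes 2 were lower, against 6.85% of all genes.

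Lymphocyte genes lay on the other side of the split. Of 14 genes of T and NK cells 8 were lower and 0 higher, with a median difference of -0.79, a median saline part of -0.08 and a median ssRNA part of -0.61. The list mean was 5.10 to 5.36 and 5.42 to 5.47 in saline legs of A/J and A/J-MyD88, and 6.08 to 6.28 and 5.51 to 5.61 in ssRNA legs. In saline legs 1 of the 14 was higher in A/J-MyD88, against 4.39% of all genes. In ssRNA legs 6 were lower and 1 was higher, against 3.02% and 2.64% of all genes. Of the 14 genes 3 were assigned to ssRNA legs and 0 to saline legs, and in the fit of 12 arrays 5 and 1. Of 3 measured genes of B and plasma cells 1 was lower, Blnk, which was above background on no A/J saline array and whose second probe gave -0.27.

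Class I presentation and interferon-induced genes had ssRNA parts several times their saline parts at the median. Of 18 class I genes 9 were lower, with median parts of -0.20 and -0.81, and Psmb8, a catalytic subunit of the immunoproteasome, gave -2.17 with parts of -0.44 and -1.73. A second Psmb8 probe gave -0.58 (adjusted p = 0.157). H2-D1, a class I heavy chain, gave -2.17 (SE 0.33, limma adjusted p = 0.001) with parts of -0.85 and -1.32. Of 34 interferon-induced genes 7 were lower, with median parts of -0.02 and -0.76. In ssRNA legs 9 were lower, against 3.02% of all genes.

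For the interferon list A/J array 1 was the highest of its group in both kinds of leg, while in A/J-MyD88 only ssRNA array 3 stood apart. A/J array 1 had list means of 6.16 with saline and 7.39 with ssRNA, while the other A/J arrays read 5.36 and 5.45, and 6.70 and 6.27. The A/J-MyD88 legs read 5.68 to 5.71 with saline and 5.78, 5.84 and 6.29 with ssRNA, so the highest A/J-MyD88 ssRNA leg overlapped the lowest A/J ssRNA leg. Over the alternatives, including those without array 1, the list median of the difference ran from -1.09 to -0.31. Lgals3bp, an interferon-induced secreted glycoprotein, gave -2.01 with parts of -0.81 and -1.20, and Irf8, a transcription factor of macrophages and dendritic cells, gave parts of -0.54 and -1.21.

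Class II presentation differed in both kinds of leg. Of 13 genes 12 were lower, with a median of -1.83 and median parts of -0.84 and -0.79. H2-Ea gave -2.48 with parts of -0.84 and -1.64, and H2-Ab1 -2.12 with parts of -0.56 and -1.56. Neutrophil genes were few, with 5 measured and 3 lower, and their median parts were -0.17 and -0.86. S100a8, a calcium-binding protein of neutrophils, averaged 5.70 ± 0.26 (SD, n = 3) in A/J ssRNA and 4.76 ± 0.18 in A/J-MyD88 ssRNA legs.

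**Figure D3:**
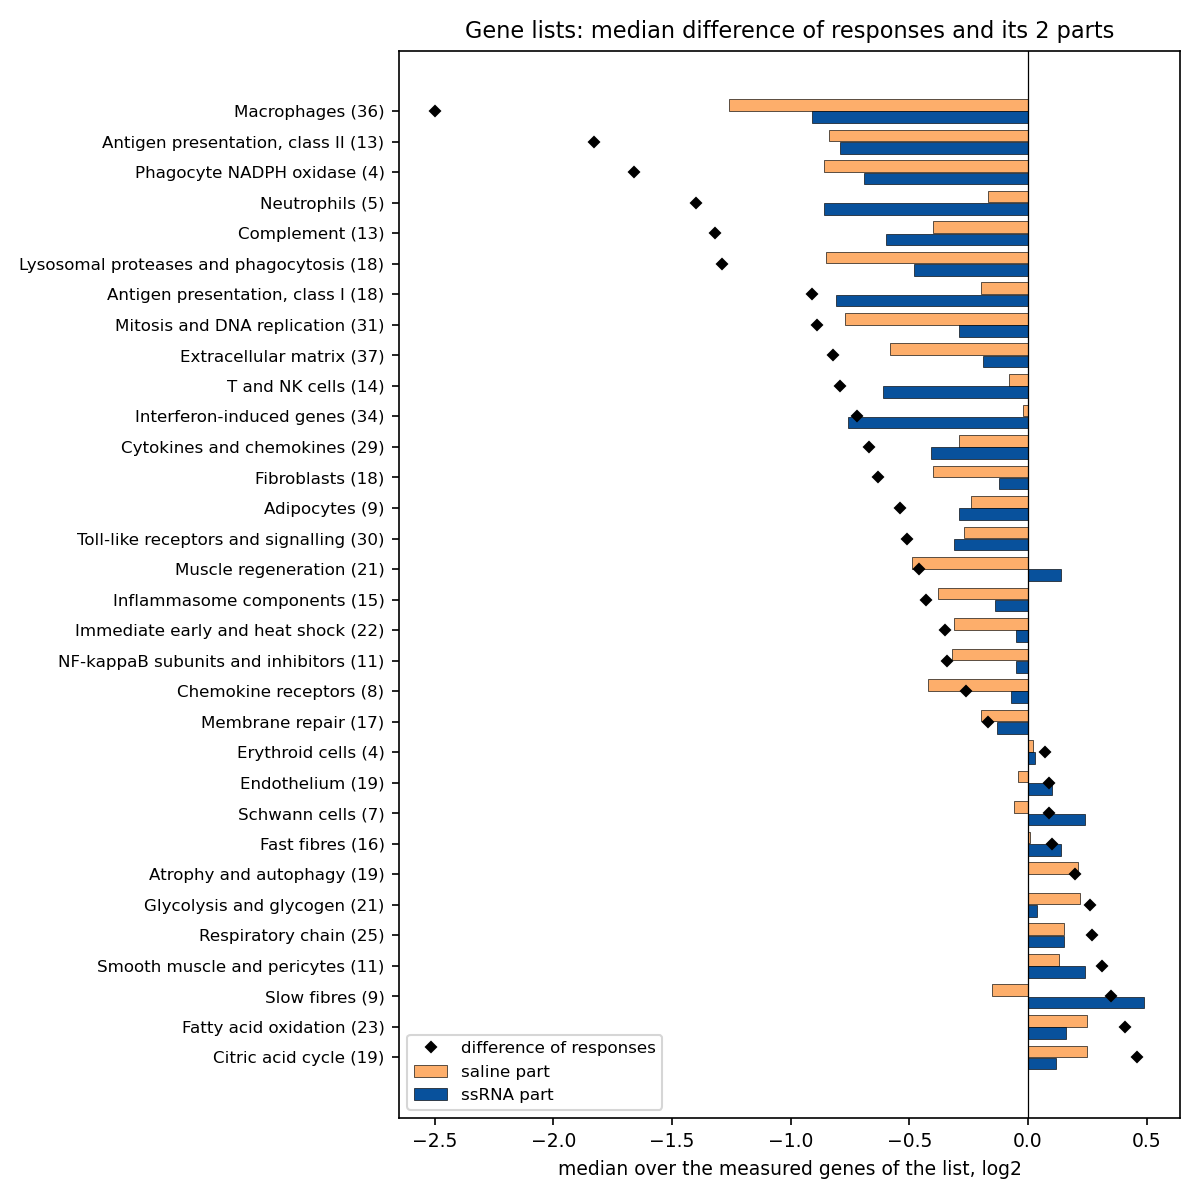
Median over the measured genes of each list (number in brackets) of the saline part (orange bar), the ssRNA part (blue bar) and the difference of responses (black diamond), in log2. Macrophage genes have the lowest median, -2.50, mitosis and matrix genes have longer saline bars, and class I, T and NK cell and interferon-induced genes have longer ssRNA bars.

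Of the genes from receptor to transcription factor, Tlr7 and Unc93b1 passed the test and Traf6 and Irf7 did not. Tlr7 read 4.89, 4.99 and 4.50 in A/J saline legs and 7.06, 6.78 and 6.96 in A/J ssRNA legs. In A/J-MyD88 it read 6.03, 6.33 and 5.84 with saline and 6.06, 5.81 and 6.12 with ssRNA, between both A/J groups with no overlap with either. Its difference was -2.20 (SE 0.34, limma adjusted p = 0.00103), with a saline part of -1.27 (adjusted p = 0.00518) and an ssRNA part of -0.94 (adjusted p = 0.0343).

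Unc93b1 gave -1.92 (SE 0.45, limma adjusted p = 0.0129) with parts of -1.36 and -0.56. Traf6, the ubiquitin ligase below MyD88, gave 0.46 (adjusted p = 0.146), and a second probe -0.27. Irf7, the factor that switches on type I interferon genes, gave -1.41 (limma adjusted p = 0.0697), with a saline part of 0.28 and an ssRNA part of -1.69 (adjusted p = 0.00939). With the replicate block Irf7 passed (adjusted p = 0.0105), as it did with 12 arrays (0.0328), and over all alternatives its adjusted p ran from 0.00831 with median centring to 0.791 with all 18 arrays. Tlr2, a receptor of bacterial lipoproteins, and Tlr13, a receptor of bacterial ribosomal RNA in mice, gave -1.99 and -2.47, each with the larger part in saline legs. Of 30 genes of Toll-like receptors and signalling 11 were lower and 1 higher, against 6.85% and 3.34% of all genes. Of 11 NF-kappaB subunits and inhibitors 2 were lower, Nfkbie and Nfkb2. Their calls held in 5 and 2 of 12 fits without 1 array. Nfkb2 gave -0.57, and Nfkbie, above background on no A/J saline array, was at least 1.52-fold higher in A/J ssRNA than in A/J saline legs (adjusted p = 0.00417).

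Among secreted signals, 10 of 29 cytokines and chemokines were lower and 0 higher, with median parts of -0.29 and -0.41. Ccl9, a chemokine of macrophages, gave -2.92 (SE 0.40, limma adjusted p = 0.00053) with parts of -1.73 and -1.20. Of 8 chemokine receptors 2 were lower, Cx3cr1 with -2.43 and Cxcr4 with -1.93, against 6.85% of all genes.

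Among called genes detected in every group, the 10 with the largest positive difference included genes of energy metabolism and of the neuromuscular junction, and all 10 fell with ssRNA in A/J at a limma adjusted p under 0.05. Decr1, an auxiliary enzyme of unsaturated fatty acid oxidation, read 7.58, 7.72 and 7.98 in A/J saline legs and 6.48, 6.83 and 6.77 in A/J ssRNA legs. Its A/J-MyD88 values were 6.92, 7.20 and 7.42 with saline and 7.23, 7.70 and 7.69 with ssRNA. The A/J ssRNA legs were the lowest 3 arrays. The difference was 1.42 (SE 0.26, limma adjusted p = 0.00308), with parts of 0.58 and 0.85.

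Chrne, the epsilon subunit of the adult acetylcholine receptor, gave 1.47 (SE 0.29, limma adjusted p = 0.00458) with parts of 0.29 and 1.17. Pdk2, a kinase that holds back pyruvate dehydrogenase, gave 1.60 (SE 0.43, adjusted p = 0.0264) with parts of 0.16 and 1.44, but its call held in 6 of 12 fits without 1 array. Slc16a3, a lactate exporter, gave 1.65 and Crat, carnitine acetyltransferase, 1.34, while their other probes gave 0.11, and 0.24 and 0.07. Pygm, the muscle glycogen phosphorylase, gave 1.30, Fitm1, a lipid droplet protein, 1.48 and Lrtm1 1.32. The calls of Fitm1 and Lrtm1 held in 10 and 11 of 12 such fits.

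As lists the metabolic genes moved little. Of 19 genes of the citric acid cycle and its regulators 4 were higher, and of 23 of fatty acid oxidation 2. Of 25 genes of the respiratory chain 1 was higher, and of 21 of glycolysis and glycogen 2. None was lower. Over all genes 3.34% were higher and 6.85% lower, so lists of this size can lack a lower gene by chance. The median differences of these lists were 0.46, 0.41, 0.27 and 0.26 against 0.06 over all genes. With median centring the median ssRNA part of fatty acid oxidation went from 0.16 to -0.01 and that of the citric acid cycle from 0.12 to -0.04. It went from 0.15 to 0.01 for the respiratory chain and from 0.04 to -0.01 for glycolysis and glycogen. Over all genes it went from 0.03 to -0.1. Of 16 fast fibre genes 1 was higher, Mylk2 with 0.64, and the list means of all 12 arrays lay between 12.67 and 12.89. Of 19 atrophy and autophagy genes 2 were higher, Atg9a with 1.28 and Ulk1 with 1.03. A second Atg9a probe gave -0.09, and the Ulk1 call held in 3 of 12 fits without 1 array.

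For the other resident cell types the counts are to be read against 6.85% lower and 3.34% higher over all genes. Endothelial genes were lower in 2 of 19, Vcam1 and Icam1, both adhesion molecules for leukocytes, with saline parts of -0.86 and -0.70. The call of Vcam1 held in 5 of 12 fits without 1 array. Smooth muscle and pericyte genes were higher in 1 of 11, and adipocyte genes lower in 1 of 9. No gene was called among 7 of Schwann cells, 4 of erythroid cells and 3 of skin epithelium. Of 17 membrane repair genes 5 were lower, with Anxa2, an annexin recruited to membrane wounds, at -1.61 (SE 0.28, limma adjusted p = 0.00227) and parts of -1.15 and -0.45. A second Anxa2 probe gave -0.59 (adjusted p = 0.36). S100a10, the partner of Anxa2, had parts of -0.28 and -1.12, and its call held in 10 of 12 fits without 1 array.

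**Figure D4:**
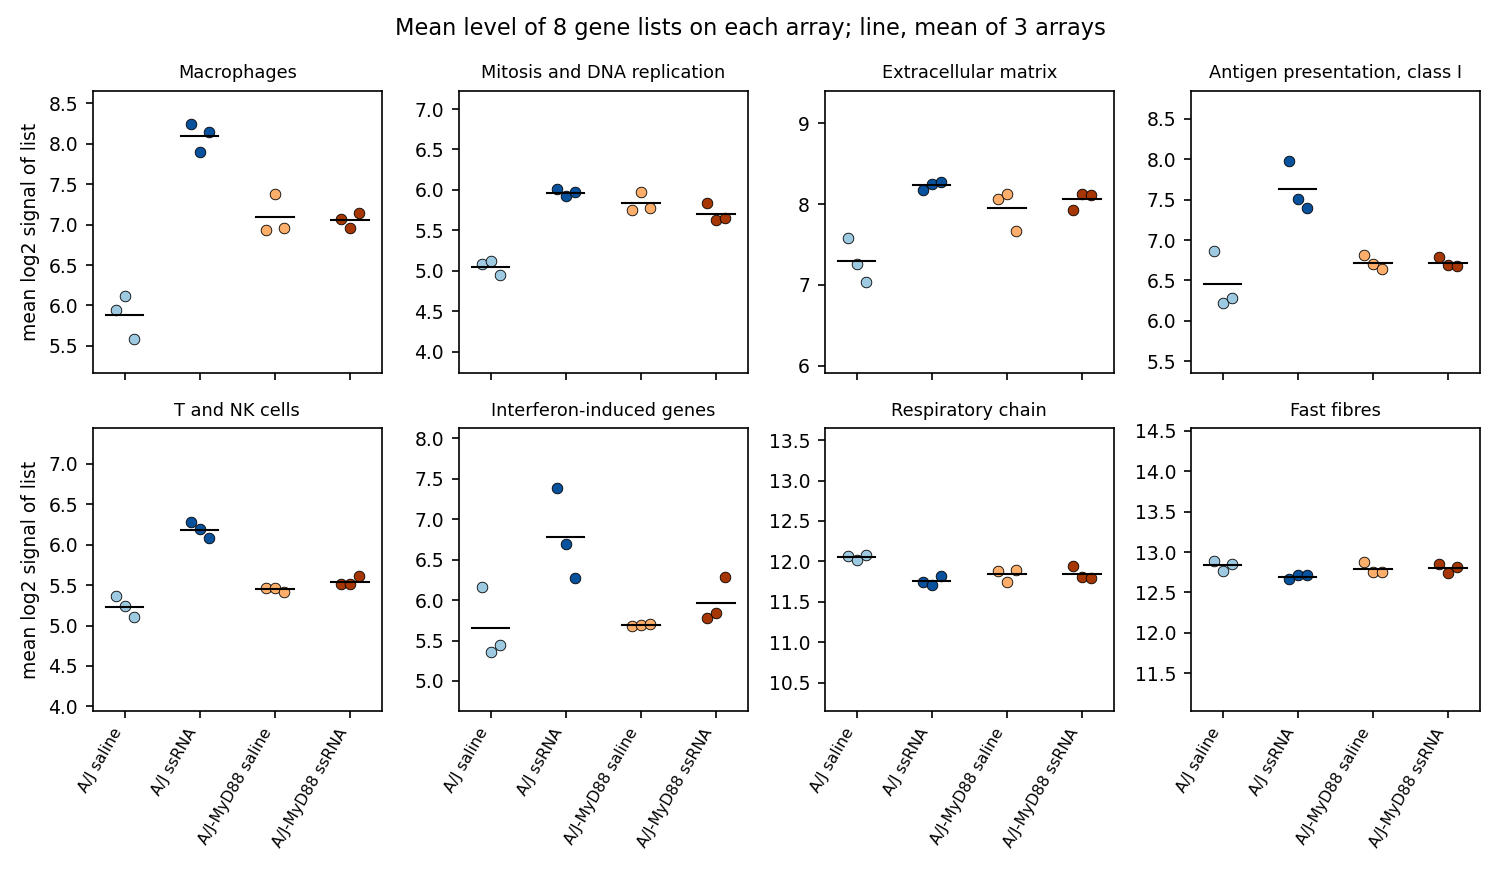
Mean log2 signal (y) of the genes of 8 lists on each of the 12 arrays, by group (x), with a line at the mean of 3 arrays and the same span on every y axis. A/J-MyD88 legs sit between both A/J groups for macrophages, near A/J ssRNA legs for mitosis and matrix genes, and near A/J saline legs for class I and for T and NK cell genes.

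Genes around Myd88 itself were counted apart, since a strain made by crossing can keep donor chromosome around the altered gene. The labels do not say how this strain was made. Of 192 measured genes within 20 Mb of Myd88 (chr9:119335934-119340018, GRCm38.p6), 22 had a higher (11.5%) and 10 a lower difference of responses (5.21%), against 3.34% and 6.85% of all genes. They are 1.71% of the genes tested and hold 2 of the 14 genes assigned to saline legs, Hemk1 and Azi2, and 4 of the 23 assigned to ssRNA legs, among them Myl3, Abhd14a and Mapkapk3. Cx3cr1 and Slc38a3 also lie there.

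Hemk1, a methyltransferase, read 8.25, 8.22 and 8.33 in A/J saline legs and 7.65, 7.87 and 7.70 in A/J ssRNA legs, but 6.93 to 7.32 on the 6 A/J-MyD88 arrays. It was lower in A/J-MyD88 in both kinds of leg, by 1.25 with saline and by 0.49 with ssRNA (limma adjusted p = 0.0363), so its parts have opposite signs. Myl3, the slow ventricular myosin light chain, was higher in A/J-MyD88 in both kinds of leg, with 7.71 to 8.69 and 6.66 to 7.43 in A/J saline and ssRNA legs against 9.25 to 10.18 on the 6 A/J-MyD88 arrays. Its difference of 1.31 was just past the threshold (adjusted p = 0.0489) and held in 3 of 12 fits without 1 array. Mapkapk3, a kinase activated by p38, read 7.48 to 7.79 on the other 9 arrays and 6.71, 6.88 and 6.83 in A/J ssRNA legs. Its difference of 0.90 (SE 0.14, adjusted p = 0.00111) had parts of 0.01 and 0.89 and kept its assignment in all 12 fits but not in the pair sums, while other Mapkapk3 probes gave -0.12 and 0.58. Whether these genes differ through the neighbouring chromosome or through MyD88 was not tested.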

How the data were processed

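The authors deposited probe intensity values exported from GenomeStudio, per the submitters' processing notes (version not given), without normalization, and beside each a detection p-value that the authors deposited in the same table. A second deposited table holds intensities normalized within each strain and was used only as an alternative. Intensities were processed with neqc in limma 3.58.1 (R 4.3.3), which corrects background, adds an offset of 16, quantile-normalizes and takes log2. The fit held 17 arrays, without the second A/JOlaHsd ssRNA array, which had no muscle signal. The A/JOlaHsd arrays in the fit were dimmer, with mean signals of 37.4 to 50.2 and 28.9% to 33.2% of probes above background. The arrays of the strains compared had 98.1 to 147 and 37.2% to 42.6%. All arrays of the fit shared the quantile normalization and the variance estimate of each gene. The filter kept 20825 of 45281 probes, those detected (p under 0.05) on 3 or more arrays, and the brightest probe of each symbol stood for its gene, which gave 11233 genes. Linear models with a mean per group (lmFit, eBayes) had 11 residual degrees of freedom plus a prior of 5.01. Two-sided p-values were adjusted by Benjamini and Hochberg over all genes.

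The fit was tested on simulated data with 11233 genes and 50 changed for each fold and leg. Of genes changed 2-fold in the saline or ssRNA leg 31 and 31 of 50 were called for the difference of responses, and 23 and 21 were assigned to the right leg. Of those changed 4-fold, 48 and 46 of 50 were assigned to the right leg and none to the wrong one. Each simulated gene was changed in a single kind of leg. In the data both parts were below 0 in 749 of the 769 lower genes, a case that these rates do not cover. Legs of equal replicate number deviated together in every pair (r = 0.402, 0.435 and 0.137 for A/J mice, 0.470, 0.171 and 0.169 for the others). Legs of unequal number gave -0.492 to 0.168, the highest for A/J saline array 3 with ssRNA array 1. The design compares opposite legs, so the replicate block and the pair sums read the numbers as pairs. The main fit had no such block, so its p-values treat all arrays as independent. Probe symbols came from the platform annotation and positions from RefSeq GRCm38.p6. Lower bounds compare the brighter group with the lowest detected signal where no array of the dimmer group was above background. Alternatives covered background correction, centring, arrays, filter, probes, pairing and each array left out. Named genes were Dysf, Myd88, genes from Tlr7 to Irf7, the 10 largest differences in each direction, the 5 largest of each leg and sign, and up to 3 called genes of each list. Irak4 was not among the genes tested. Members and lists were chosen with earlier results of these data known.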

Additional observations from a re-analysis of the deposited data

Results flagged for a closer look

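The responses of both strains differed, by the interaction test itself, in 1144 genes, at a limma adjusted p under 0.05. Among called genes detected on at least 1 array of every group, the 10 largest negative differences (A/J-MyD88 minus A/J, log2) were those of Ccl8 at -4.03, Ms4a6d at -3.79, Lyz2 at -3.74, H2ac12 at -3.65, Ifi27l2a at -3.64, H2ac15 at -3.63, Ms4a7 at -3.53, Ctss at -3.37, Ly86 at -3.29 and Fcgr4 at -3.17. The call of each held in all 12 fits without 1 array. In the same set, the 10 largest positive differences were those of Slc16a3 at 1.65, Pdk2 at 1.60, Fitm1 at 1.48, Chrne at 1.47, Decr1 at 1.42, Slc38a3 at 1.40, Crat at 1.34, Lrtm1 at 1.32, Myl3 at 1.31 and Pygm at 1.30. The calls of Pdk2, Fitm1, Lrtm1 and Myl3 were lost in some of those fits. Groups of 3 arrays were too small to test for single outlying arrays.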

How the results depend on the processing

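Most counts depended on the arrays in the fit and on the scaling. For the difference of responses the count of 1144 became 1764 with median centring, 2174 with only the 12 arrays compared, 25 with all 18 arrays, 1855 with the authors' values and 2090 with each strain normalized alone. Saline legs (604) gave 972, 1292 and 15 with median centring, 12 arrays and 18 arrays. Those settings gave 1247, 1690 and 18 for ssRNA legs (636), where no background correction gave 396. The response within A/J (2518) became 3794 with 12 arrays and 220 with 18. The 37 genes assigned to 1 kind of leg became 15 without background correction, 117 with median centring, 216 with 12 arrays and 3 with 18 arrays. Under those settings the saline legs had 4, 27, 133 and 0 genes and the ssRNA legs 11, 90, 83 and 3. With pair sums, the replicate block for that contrast and an alternative chosen after seeing the data, 16 genes were assigned, 8 and 8, and pair sums of the 12 arrays gave 31 to saline legs. The replicate block made Irf7 and Egr2 pass (adjusted p 0.0105 and 0.0348), gave 1145 calls for the difference of responses, and ended those of Azi2, Armt1, Nfkb2, Ogdh, Anxa1 and Ulk1 (adjusted p 0.0534, 0.068, 0.0647, 0.0913, 0.0781 and 0.0662).

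Without 1 array, the difference of responses ranged from 599 to 1222 genes, lowest without A/J-MyD88 saline array 2 and next lowest, at 652, without A/J saline array 3. Saline legs ranged from 179 to 597, ssRNA legs from 187 to 680, the response within A/J from 1537 to 2473, the genes assigned to 1 kind of leg from 14 to 27, those of saline legs from 3 to 14 and those of ssRNA legs from 11 to 19. The response within A/J-MyD88 stayed at 0 in every setting run. No gene given with a difference in the report changed its sign in the settings run. Genes with a group below background, 96 of 1144, have only bounds there, and the number of arrays limits the precision of all values.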
